A study of Mus musculus with 6 samples.

Results

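Wild-type (WT) splenic B cells in which exactly 1 productive heavy chain and exactly 1 productive light chain were recovered numbered 3874, of the 6446 WT B cells with any productive chain and of 10244 such B cells in the series. Members were the barcodes with a cell call in the WT B cell receptor table and none in the WT T cell receptor table, with exactly 1 heavy and 1 light CDR3 nucleotide sequence among productive, high-confidence contigs of at least 2 unique molecular identifiers (UMIs, counts of distinct captured transcripts). These 60.1% (58.9 to 61.3) of the WT B cells are those in which a heavy chain can be assigned to its light chain without ambiguity. The other WT B cells had 1 light chain and no heavy chain (1457 cells), 1 heavy and 2 light chains (497 cells), or less often other combinations, such as several heavy and several light chains (282 cells).

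The series holds droplet (10x Chromium 5′) V(D)J libraries of the spleens of 1 mouse heterozygous for the 564Igi alleles, Ightm1(Igh564)Tik with Igktm1(Igk564)Tik on the B6.129S4(Cg) background, and 1 unmodified C57BL/6JRj mouse, the WT. The 564Igi alleles place rearranged heavy and kappa chain genes of an autoreactive antibody in the Igh and Igk loci, so that 564Igi cells have restricted chains, whereas WT cells assemble theirs from the whole germline set. Ter-119-positive erythroid cells were depleted from both spleens, and no gene expression data were used here. The WT B cell table held 24740982 reads and 927382 UMIs in 43992 contigs. With 1 mouse per genotype no comparison between animals was tested, cells of 1 mouse are not replicates of it, and every interval is a 95% interval that covers counting error only.

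A B cell receptor is made of a heavy chain, joined from V, D and J segments with untemplated bases at the joins, and a light chain, joined from V and J alone at the kappa or, mostly later, the lambda locus. The heavy chain is assembled first and the light chain is then selected in a cell that already displays it, and light chains that pair poorly or give a self-reactive receptor can be replaced by further rearrangement. The CDR3 is the loop across the joins, counted here from the conserved cysteine to the conserved tryptophan or phenylalanine that bound it.

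The chains of a pair differed in how often they recurred. The 3874 cells held 3838 distinct heavy CDR3 sequences, and 1.57% of cells shared theirs with another member. The same cells held 715 distinct light CDR3 sequences, and 92.2% of cells shared theirs with another member. The 42 light sequences found in at least 20 members covered 1366 cells (35.3%). Cells whose heavy and light chains matched in V gene, J gene and CDR3 nucleotides, counted as a clonotype, made up 1.14% of cells, in 17 clonotypes of at most 7 cells, so recurring light chains belonged almost always to different heavy chains.

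The 5 most shared light CDR3 sequences show this recurrence, with the J-derived end in capitals, that is, the 3′ run that at least 90% of the distinct member CDR3s of the same J gene had in common. Where a printed sequence departs from that run, here or below, only the part it matches up to the 3′ end is in capitals.
IGLV1 with IGLJ1: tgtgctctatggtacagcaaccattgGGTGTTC
IGLV2 with IGLJ2: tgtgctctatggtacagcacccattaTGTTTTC
IGKV10-96 with IGKJ1: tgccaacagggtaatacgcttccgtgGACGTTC
IGKV1-117 with IGKJ2: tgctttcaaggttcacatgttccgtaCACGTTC
IGKV4-59 with IGKJ2: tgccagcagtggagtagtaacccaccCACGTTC
All were 33 bases (11 amino acids) long. The IGLV1 sequence occurred in 87 cells with 87 different heavy CDR3s from 39 heavy V genes in 10 families. The IGLV2 sequence occurred in 74 cells with 74 different heavy CDR3s, of which 67 cells had IGLV2 named as the V gene. For lambda chains the gene name is also the family used here, so counts by lambda gene carry this uncertainty. The IGKV10-96 sequence occurred in 73 cells, the IGKV1-117 sequence in 46 and the last in 43, again with a different heavy CDR3 in every cell. IGKV4-59 was the named V gene in 18 of these 43 cells, so the name of the IGKV4 gene behind this CDR3 is uncertain, while the family is not affected. The genes lie at chr16:19085017-19085460 (Iglv1), chr16:19260403-19260844 (Iglv2), chr6:68631965-68632430 (Igkv10-96), chr6:68121091-68121825 (Igkv1-117) and chr6:69438218-69438741 (Igkv4-59) of GRCm38.p6.

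Heavy CDR3s were by contrast nearly all private and varied in length as well as letters, as the extremes show, with the J-derived end in capitals as before.
Shortest, IGHV14-2 with IGHJ2: tgtgctagtatgTACTGG
Longest, IGHV1-18 with IGHJ4: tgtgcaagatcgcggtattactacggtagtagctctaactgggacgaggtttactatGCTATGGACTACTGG
The shortest encoded 6 amino acids, a length that 6 cells had, and its cell held 40 heavy and 79 light UMIs. The longest encoded 24 amino acids in 1 cell with 8 heavy and 91 light UMIs.

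IGHV1, the largest mouse heavy V family, supplied 2275 of the heavy chains (58.7%), followed by IGHV5 (268 cells, 6.92%), IGHV9 (235, 6.07%), IGHV2 (215, 5.55%) and IGHV8 (212, 5.47%). The most used heavy V genes were IGHV1-26 (200 cells, 5.16%), IGHV9-3 (169), IGHV1-64 (157), IGHV3-6 (131) and IGHV1-72 (121). No single light family dominated in this way. IGKV4 supplied 498 light chains (12.9%), IGKV1 485 (12.5%) and IGKV6 468 (12.1%), and the most used light V genes were IGKV10-96 (202 cells, 5.21%), IGLV1 (192), IGKV1-117 (164), IGKV1-135 (154) and IGKV1-110 (130). Among J genes, IGHJ2 was used in 32.2% of heavy chains, IGHJ4 in 27.2%, IGHJ3 in 23.2% and IGHJ1 in 17.3%. IGKJ2 and IGKJ1 were used in 1128 and 1102 cells, IGKJ5 in 815, IGKJ4 in 509, and IGLJ1, IGLJ2 and IGLJ3 in 166, 128 and 26. The constant gene of the heavy contig with most UMIs was IGHM in 2810 cells (72.5%) and IGHD in 786 (20.3%), and it was not named in 254 (6.56%). IGHM and IGHD encode the IgM and IgD of unswitched B cells. Each cell has 1 such label, so cells that make both are not told apart from cells that make 1. Switched isotypes were rare, with IGHA in 13 cells, IGHG1 and IGHG2B in 4 each, IGHG2C in 2 and IGHG3 in 1.

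Pairing of heavy with light V families was compared with the product of the margins, which is the number of cells a family pair would hold if each family took partners in proportion to their overall use. Of the 76 family pairs with at least 10 cells expected, 16 were past 1.5-fold in either direction (21.1%), 3 above (3.95%) and 13 below (17.1%), and 9 of these (11.8% of the 76) also had an exact Poisson interval that left out 1. The other 60 lay within 1.5-fold. IGHV1 with the large kappa families stayed close to 1, for example 288 cells against 284.8 expected with IGKV1 and 310 against 292.5 with IGKV4. The chi-square per degree of freedom of the table of 13 heavy by 19 light families was 2.84 over 3862 cells, where independence gives about 1, and the bias-corrected Cramér's V was 0.0929. Segments joined within a chain, measured in the same way, gave 11.6 and 0.212 for kappa V family with kappa J, and 4.73 and 0.108 for heavy V family with heavy J. Heavy J with light J gave 1.46 and 0.0268. Between V families, both measures across the chains were lower than those within either chain. With light chains reduced to kappa or lambda the measures were 8.32 and 0.151 for heavy V family with light locus. That table had a chi-square of 99.8 at 12 degrees of freedom, against 614 at 216 between V families. Both measures depend on the number of categories, so values from tables of unlike shape do not rank the strength of association. Without IGHV10 and IGHV11 cells the chi-square per degree of freedom between V families was 1.71.

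**Figure D1:**
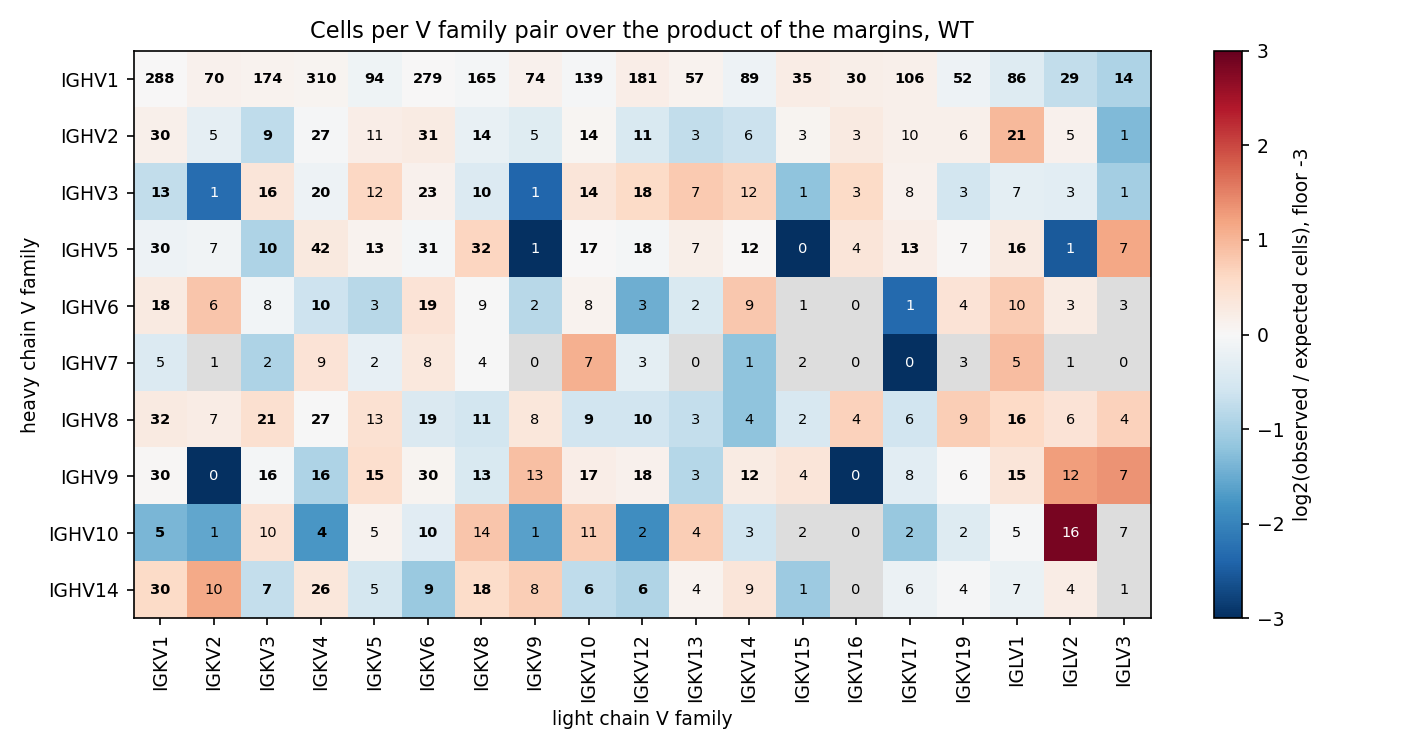
Cells of each pair of heavy V family (rows) and light V family (columns) with at least 40 members each. Colour gives log2 of observed over expected cells (red above, blue below, grey where under 2 were expected), numbers the observed cells, bold where at least 10 were expected; the darkest red square is IGHV10 with IGLV2, 16 cells.

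By the criterion of 1.5-fold and interval, 2 pairs (2.63%) were above and 7 (9.21%) below expectation. The first pair above was IGHV2 with IGLV1, with 21 cells against 10.7 expected, a ratio of 1.97 (1.22 to 3.01). The other was IGHV5 with IGKV8, with 32 cells against 20.4 expected, a ratio of 1.57 (1.07 to 2.21). The IGHV5 ratio was close to the limit and was 1.49 in cells with at least 10 heavy UMIs and 1.32 with margins taken from all WT B cells. Of the 7 pairs below expectation, 2 joined IGHV10 to the largest kappa families, with 4 cells against 13.4 expected for IGKV4 (0.299, 0.0815 to 0.766) and 5 against 13.0 for IGKV1 (0.384, 0.125 to 0.896). Another 2 joined IGHV1 to lambda genes, with 14 cells against 26.4 expected for IGLV3 (0.530, 0.290 to 0.889) and 29 against 48.7 for IGLV2 (0.595, 0.398 to 0.854). The remaining 3 were within kappa. IGHV14 with IGKV6 held 9 cells against 19.4 expected (0.463, 0.212 to 0.878), IGHV5 with IGKV3 10 against 19.1 (0.524, 0.251 to 0.963), and IGHV9 with IGKV4 16 against 30.2 (0.530, 0.303 to 0.860). Just inside the 1.5-fold limit lay IGHV14 with IGKV1, with 30 cells against 20.2 expected and a ratio of 1.49 (1.004 to 2.12).

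Pairs of smaller families fell outside that criterion and are given as chosen after their values were seen. Of 224 pairs with under 10 cells expected, 7 (3.12%) were at least 1.5-fold above with an interval that left out 1. The largest ratio was that of IGHV11 with IGKV14, with 10 cells against 0.564 expected, 17.7 (8.51 to 32.6). IGHV10 with IGLV2 held 16 cells against 2.23 expected, a ratio of 7.18 (4.10 to 11.7), and IGHV10 with IGLV3 held 7 against 1.21, a ratio of 5.79 (2.33 to 11.9). The other 4 were IGHV13 with IGLV2 (3 cells, 7.78), IGHV9 with IGLV3 (7 cells, 2.56), IGHV9 with IGLV2 (12 cells, 2.38) and IGHV14 with IGKV2 (10 cells, 2.21). A further 4 of the 224 pairs (1.79%) were as far below with an interval that left out 1. These were IGHV9 with IGKV2 (0 cells against 6.61 expected), IGHV5 with IGKV9 (1 against 7.96), IGHV5 with IGLV2 (1 against 5.74) and IGHV10 with IGKV12 (2 against 7.25), so IGLV2 was below expectation with IGHV5. At the level of single V genes, 6 gene pairs held at least 10 cells and 4 of these (66.7%) were at least 2-fold over the product of the margins with an interval that left out 1. IGHV1-81 with IGKV9-120 held 10 cells against 2.83 expected (3.54, 1.70 to 6.51), IGHV9-3 with IGLV2 10 against 3.62 (2.76, 1.32 to 5.08), IGHV8-8 with IGKV1-110 11 against 4.03 (2.73, 1.36 to 4.89) and IGHV1-64 with IGKV9-120 10 against 3.73 (2.68, 1.29 to 4.93). A gene pair reaches 10 cells more easily when it is above its expectation, so this share describes the pairs listed and not gene pairs in general.

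IGHV11-2 with IGKV14-126, a gene pair examined whatever its cell number, is known in mice as a phosphatidylcholine-binding receptor of B-1 cells, the self-renewing B cells that make natural antibody. The pair occurred in 9 of the 13 IGHV11-2 cells, whereas 0.0906 cells were expected, a ratio of 99.3 (45.4 to 189). The most common heavy and light CDR3 of these 9 cells are shown because both chains recurred, with the J-derived end in capitals.
IGHV11-2 with IGHJ1: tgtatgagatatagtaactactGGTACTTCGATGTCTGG
IGKV14-126 with IGKJ2: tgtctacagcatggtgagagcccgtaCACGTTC
The heavy sequence occurred in 3 of the 9 cells, which held 6 distinct heavy CDR3s, and the light sequence in 6 cells, which held 3 distinct light CDR3s. Counted by clonotype, the 10 cells of IGHV11 with IGKV14 made 8. The other pair known for this specificity, IGHV12-3 with IGKV4-91, occurred in 1 of 3 IGHV12-3 cells, with 0.0209 expected. Ighv11-2 lies at chr12:114048241-114048704 and Igkv14-126 at chr6:67896177-67896642 of GRCm38.p6.

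Lambda light chains, which in mice come from a small locus with few V genes, were found in 320 of 3874 cells, 8.26% (7.41 to 9.17), and their share varied with the heavy family. In IGHV10 cells it was 28 of 104, or 26.9% (18.7 to 36.5), against 292 of 3770, or 7.75% (6.91 to 8.65), in all other families. IGHV1 was at the low end with 129 of 2275, or 5.67% (4.76 to 6.70). The families other than IGHV1 and IGHV10 together had 10.9% (9.37 to 12.6), with IGHV9 at 14.5% (10.2 to 19.6) and IGHV2 at 12.6% (8.44 to 17.7). Intervals of IGHV10 and IGHV1 did not overlap, whereas those of IGHV10 and IGHV9 did.

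**Figure D2:**
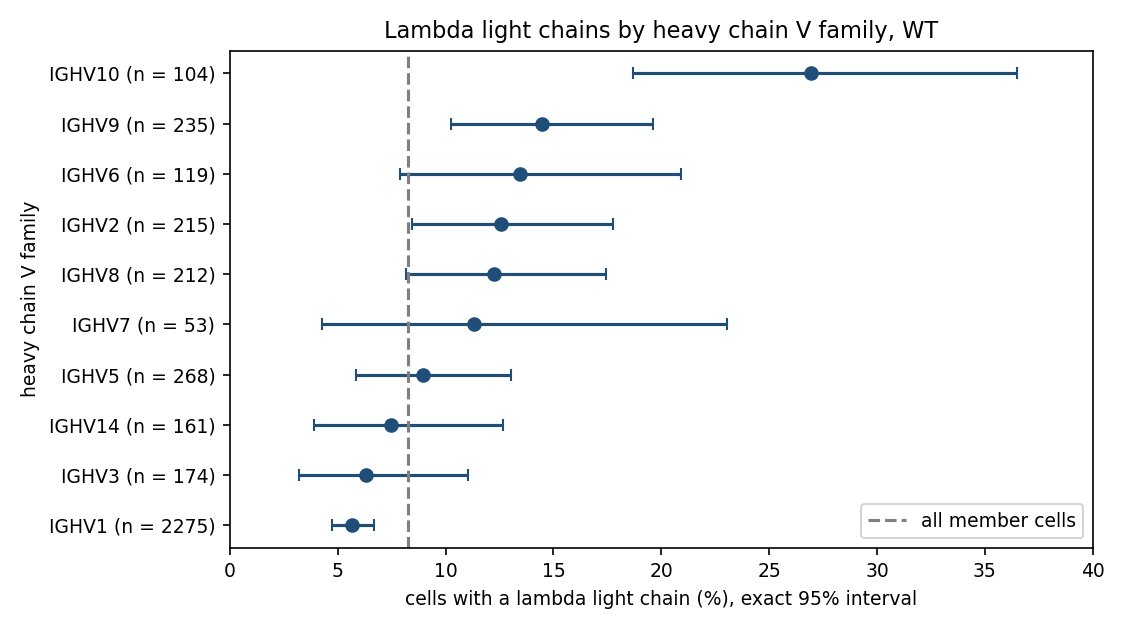
Share of cells with a lambda light chain (x axis, percent, with exact binomial 95% intervals) for each heavy V family with at least 40 members (y axis); the dashed line marks all members, 8.26%. IGHV10 stands highest at 26.9% and IGHV1 lowest at 5.67%.

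The IGHV10 lambda cells were not copies of each other. Heavy CDR3s of the 4 cells with the most heavy UMIs among the 16 that paired IGHV10 with IGLV2 are printed to show how little they share beyond the ends, with the J-derived end in capitals, and below them the light CDR3 that 13 of the 16 cells carried.
IGHV10-1 with IGHJ2: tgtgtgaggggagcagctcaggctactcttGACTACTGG
IGHV10-1 with IGHJ3: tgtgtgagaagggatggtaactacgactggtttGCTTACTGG
IGHV10-3 with IGHJ4: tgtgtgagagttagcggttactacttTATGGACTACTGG
IGHV10-1 with IGHJ1: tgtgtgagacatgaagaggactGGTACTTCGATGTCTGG
Light, IGLV2 with IGLJ2: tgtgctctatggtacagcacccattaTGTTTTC
The 28 IGHV10 lambda cells held 28 distinct heavy CDR3s in 28 clonotypes, of 7 to 16 amino acids with a median of 13. They were well covered, with a median of 19 heavy UMIs (5 to 31) and of 53.5 light UMIs (25 to 603). Both genes of the family contributed, IGHV10-1 (chr12:114479007-114479451) with a lambda share of 33.3% (21.1 to 47.5) and IGHV10-3 (chr12:114523441-114523887) with 20% (10.03 to 33.7). By the lambda V gene named, the excess lay in IGLV2 and IGLV3 rather than IGLV1. IGHV10-1 paired with IGLV2 in 9 cells (1.16 expected), with IGLV3 in 6 (0.627 expected) and with IGLV1 in 3 (2.68 expected), and IGHV10-3 with IGLV2 in 7 (1.07 expected), with IGLV3 in 1 (0.581 expected) and with IGLV1 in 2 (2.48 expected).

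Cells outside the members showed the same direction for IGHV10. Among WT cells with 1 heavy and 2 light chains, 8 of 10 IGHV10 cells had a lambda chain (80.0%, 44.4 to 97.5), against 89 of 487 cells of other families (18.3%, 14.9 to 22.0). Among 564Igi cells with 1 heavy and 1 light chain whose heavy CDR3 was not the most frequent one of that mouse, 6 of 29 IGHV10 cells had a lambda chain (20.7%, 7.99 to 39.7), against 26 of 1360 cells of other families (1.91%, 1.25 to 2.79). Most of these 564Igi cells carried the most frequent light CDR3 of that mouse, a kappa chain, which lowers both shares. Without that light CDR3 the shares were 6 of 8 (75%, 34.9 to 96.8) and 26 of 114 (22.8%, 15.5 to 31.6). The set also differed from members in heavy J use and heavy CDR3 length, as given below with its UMIs. The lambda gene was IGLV2 in 5 and IGLV3 in 2 of the WT cells with 2 light chains. In the 564Igi cells it was IGLV1 in 3 and IGLV2 in 3.

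Heavy CDR3s had a median length of 14 amino acids (quartiles 12 and 16, mean 14.0 ± 2.66, SD over cells) and ranged from 6 to 24. Light CDR3s were nearly uniform: 83.4% of lambda and 90.01% of kappa chains had 11 amino acids. A further 7.03% of kappa chains had 10, which came mainly from IGKV8 (83 of 295 cells) and IGKV19 (64 of 98). A length of 15 was found in 41 lambda cells, all of them IGLV3, and made up 91.1% of that gene's 45 cells. Heavy length followed the J gene, with a mean of 15.1 for IGHJ1, 14.7 for IGHJ4, 13.5 for IGHJ3 and 13.1 for IGHJ2, and it was longer in IGHV8 (mean 15.3) than in IGHV6 (12.3). Heavy chains in which no D gene was named averaged 10.5 amino acids (344 cells), and those with IGHD1-1, the most frequent D gene, 15.2 (1396 cells). Naming a D gene needs D bases left in the CDR3, so the name and the length are not independent.

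Across all members the lengths of both CDR3s had little correlation, with a Spearman correlation of -0.01 and a Pearson correlation of -0.03 over 3874 cells of 1 library, given as a description. The mean heavy length was 13.3 with light CDR3s of 15 amino acids (41 cells), 14.1 with those of 10 (251 cells), 14.0 with those of 11 (3466 cells), 14.4 with those of 12 (83 cells) and 13.1 with those of 13 (18 cells).

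IGKV1-135 (chr6:67609745-67610508), among the 5 most used light genes, was found with a lower mean heavy CDR3 length than any other of the 40 light V genes with at least 40 members. The mean was 12.4 ± 3.07 in 154 IGKV1-135 cells, against 14.0 ± 2.62 in the other 3720 cells (SD over cells). The next lowest mean, that of IGLV2, was 13.0, and IGKV1-117 of the same family had 14.7. The cut at 10 amino acids was chosen after these values were seen: 53 IGKV1-135 cells, 34.4% (27.0 to 42.5), had a heavy CDR3 of at most 10 amino acids, against 338 of the other cells, 9.09% (8.18 to 10.1). Lengths of 10 and 9 amino acids were the most frequent of all in IGKV1-135 cells, with 22 and 20 cells. The 4 short heavy CDR3s with the most heavy UMIs are printed to show that they came from different V genes, and below them the most common IGKV1-135 light CDR3, with the J-derived end in capitals.
IGHV1-12 with IGHJ2: tgtgcaagatcggactgggacgggTACTGG
IGHV6-3 with IGHJ2: tgcgcgcagggttactgggacgtCTACTGG
IGHV13-2 with IGHJ2: tgtagtagagaggattttGACTACTGG
IGHV2-9-1 with IGHJ1: tgtgccagaaatttgggCGATGTCTGG
Light, IGKV1-135 with IGKJ1: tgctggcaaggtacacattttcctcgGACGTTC
The 154 cells were 154 different clonotypes with 55 heavy V genes, and the light sequence shown was found in 34 of them with 34 different heavy CDR3s.

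The share of short heavy CDR3s was higher in IGKV1-135 cells within every heavy J gene. With IGHJ2, 50.8% (37.7 to 63.9) of 61 IGKV1-135 cells had at most 10 amino acids, against 14.7% (12.7 to 16.8) of 1187 other cells. With IGHJ3 the shares were 33.3% (19.1 to 50.2) of 39 cells and 11.03% (9.02 to 13.3) of 861 cells. With IGHJ1 they were 21.4% (4.66 to 50.8) of 14 cells and 3.50% (2.23 to 5.21) of 657 cells, and with IGHJ4 15% (5.71 to 29.8) of 40 cells and 4.53% (3.34 to 6.00) of 1015 cells. The intervals did not overlap for IGHJ2 and IGHJ3, and overlapped for IGHJ1 and narrowly for IGHJ4. In WT cells with 1 heavy and 2 light chains the share was 13.8% (6.15 to 25.4) of the 58 cells in which either light chain was IGKV1-135, against 8.20% (5.81 to 11.2) of the other 439, with overlapping intervals. The next highest shares among members were 25% (13.2 to 40.3) of 44 IGKV2-109 cells and 22.8% (14.7 to 32.8) of 92 IGKV9-120 cells, whereas IGKV10-96 had 1.49% (0.307 to 4.28) of 202 cells.

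**Figure D3:**
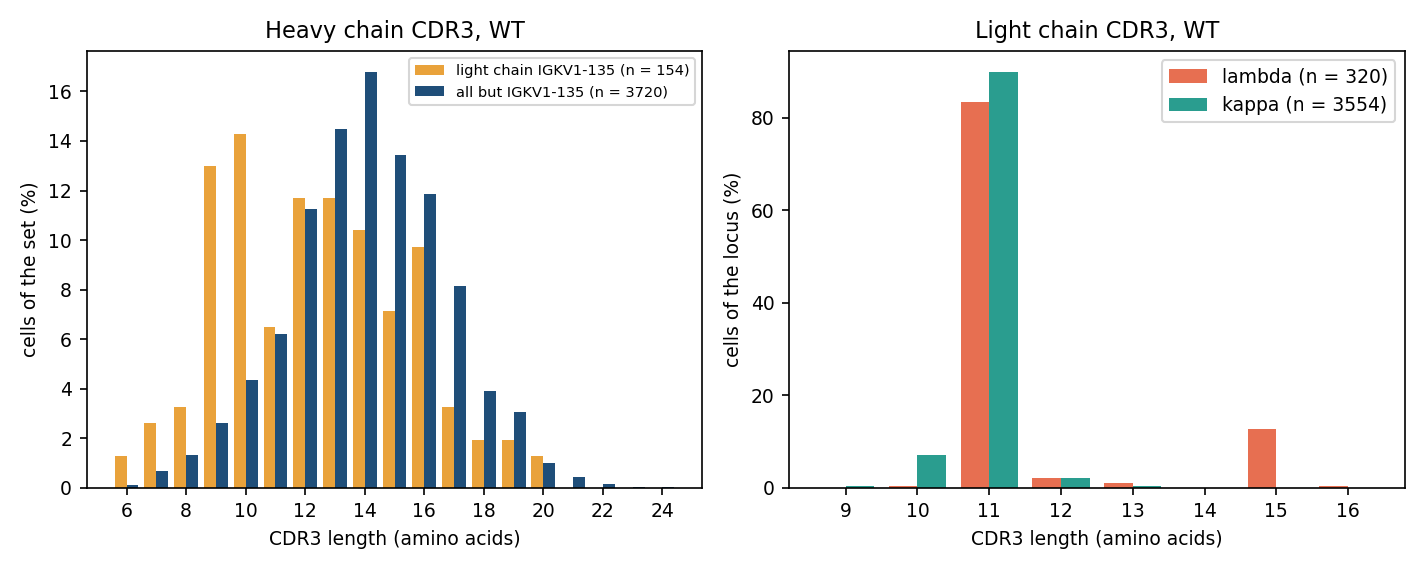
Left, heavy CDR3 length (x axis, amino acids) as percent of the 154 cells with an IGKV1-135 light chain (orange) and of the 3720 cells with any other light chain (blue). Right, light CDR3 length as percent of the 320 lambda (red) and 3554 kappa (green) cells; orange bars exceed blue ones from 6 to 12 amino acids, and the lambda bar at 15 is IGLV3.

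The net charge of the CDR3 (arginine and lysine minus aspartate and glutamate) was examined because positive charge in the heavy CDR3 is known from self-reactive antibodies that bind DNA. The count covers the whole CDR3, so residues encoded at its V and J ends enter it. The comparison was chosen after values had been seen. Cells whose light CDR3 was positive had fewer positive heavy CDR3s, 61 of 435 or 14.0% (10.9 to 17.6), against 870 of 3439 or 25.3% (23.9 to 26.8) in cells with a neutral or negative light CDR3, a difference of -11.3 percentage points (-14.7 to -7.37). Their heavy CDR3s were more often negative, 53.1% (48.3 to 57.9), against 38.5% (36.8 to 40.1) in the cells with a neutral or negative light CDR3. The mean heavy charge was -0.65 and -0.24 in these sets. It did not fall in steps with the light charge, since it was -0.13 at a light charge of -2 (207 cells), -0.33 at -1 (634 cells), -0.23 at 0 (2598 cells), -0.67 at 1 (411 cells) and -0.26 at 2 (23 cells). In the 23 cells at a light charge of 2 the heavy CDR3 was negative in 30.4% and positive in 21.7%.

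Positive light CDR3s were concentrated in chains joined to IGKJ1, of which 26.0% were positive, and in the families IGKV10 (29.5%) and IGKV4 (25.1%). Within kappa J genes the share of positive heavy CDR3s was 14.0% of 286 cells with a positive light CDR3 against 25.6% of 816 other cells for IGKJ1, a difference of -11.6 points (-16.6 to -6.18). It was 10.1% of 69 cells against 24.7% of 1059 cells for IGKJ2, a difference of -14.6 points (-21.2 to -4.61). For IGKJ4 (-11.1 points, -20.9 to 4.67) and IGKJ5 (-4.49 points, -16.2 to 11.7) the interval included 0. By light family, the share was lower with a positive light CDR3 in each of the 7 light families with at least 20 cells on both sides. In IGKV4 it was 12% of 125 cells against 27.1% of 373 cells, in IGKV1 10.0% of 60 cells against 23.5% of 425 cells, and in IGKV8 15% of 60 cells against 29.4% of 235 cells. The difference was smallest in IGKV10, with 19.4% of 72 cells against 26.2% of 172 cells. By heavy J gene, positive heavy CDR3s were most frequent with IGHJ3, where 23.7% of 93 cells with a positive light CDR3 had one, against 43.6% of 807 other cells. The other J genes had 9.52% against 20.2% (IGHJ2), 11.4% against 18.3% (IGHJ4) and 15.9% against 20.9% (IGHJ1). In WT cells with 1 heavy and 2 light chains, by the light chain with most UMIs, the shares were 17.9% of 56 cells and 26.8% of 441 cells, a difference of -8.90 points whose interval included 0 (-18.9 to 4.29).

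**Figure D4:**
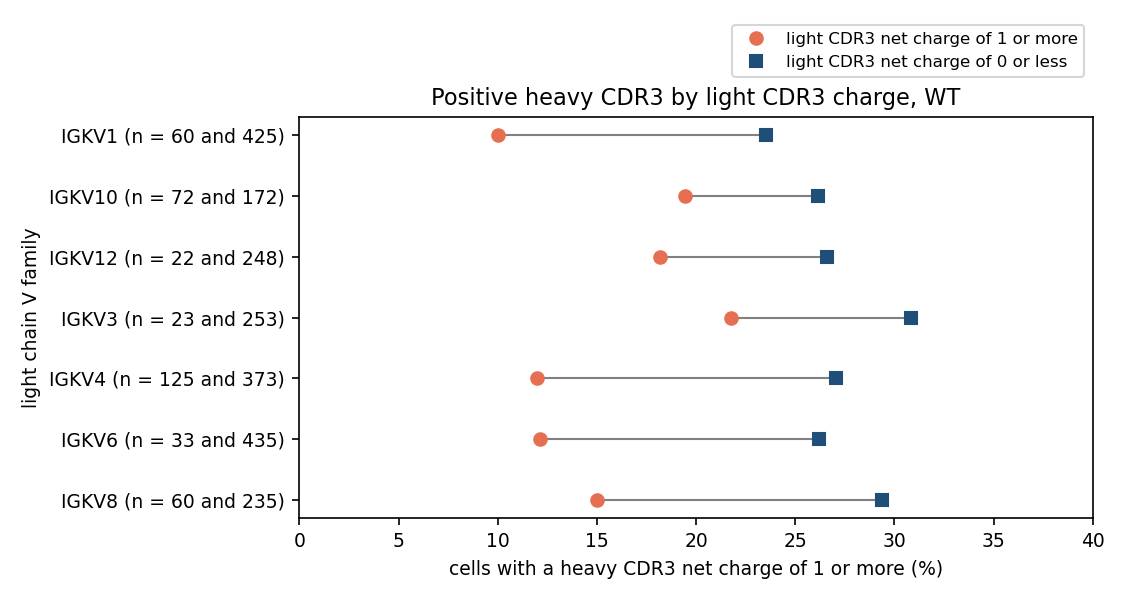
Share of cells with a heavy CDR3 net charge of 1 or more (x axis, percent) in cells with a light CDR3 net charge of 1 or more (circles) and in cells with a light CDR3 charge of 0 or less (squares), by light V family (y axis, cell numbers in that order). The circle lies left of the square in all 7 families shown, from 10.0% against 23.5% in IGKV1 to 21.7% against 30.8% in IGKV3.

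Members held more light than heavy chain UMIs. The median was 14 UMIs for the heavy chain (quartiles 9 and 21) and 45 for the light chain (28 and 67), and the median of the ratio of heavy to light UMIs within a cell was 0.326 (0.317 to 0.333). From read counts of the same contigs the median ratio was 0.215, lower by over 1.5 times. Heavy UMIs exceeded light UMIs in 292 cells, 7.54% (6.73 to 8.41). The heavy and light counts of a cell had a Spearman correlation of 0.35, a description over cells that share library and depth. UMIs of different V genes depend on capture and assembly as well as on transcript number, and these cannot be told apart here. The 2-UMI minimum touched few cells, since 32 members had exactly 2 heavy UMIs and 6 exactly 2 light UMIs, and a minimum of 1 would have added 21 cells. In WT barcodes called in the T cell table and not in the B cell table, a heavy chain was kept in 2 of 3263 (0.0613%, 0.00742 to 0.221) with a median of 3 UMIs. A light chain was kept in 45 (1.38%, 1.01 to 1.84) with a median of 5. The 345 WT barcodes called in both tables are left out of these shares by that choice, so the shares cannot give the full background of free transcripts.

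Each chain's UMI level varied more with its own V family than with that of its partner. The contrast was weaker for heavy than for light UMIs. Over the 10 heavy families with at least 40 cells, median heavy UMIs ranged from 10 in IGHV14 and 12 in IGHV1 to 24 in IGHV2 and 26 in IGHV6, while median light UMIs in the same cells ranged from 39 to 54. Over the 19 light families, median light UMIs ranged from 21 in IGKV4 to 68 in IGKV9 and IGKV17, while median heavy UMIs ranged from 12 to 21. The highest of these heavy medians were those of the lambda families, 17 in IGLV2, 17.5 in IGLV1 and 21 in IGLV3. The ratio therefore spanned 0.206 in IGHV14 to 0.517 in IGHV2, and 0.211 in IGKV17 to 0.640 (0.593 to 0.684) in IGKV4. A similar order of heavy families was seen in 564Igi cells with a heavy chain other than the most frequent one, with medians of 8 in IGHV14, 13 in IGHV1, 19 in IGHV2 and 25 in IGHV6 and a Spearman correlation of 0.94 with the WT medians across 10 families of at least 20 cells. Heavy UMIs exceeded light UMIs in 42.6% of these 564Igi cells, against 7.54% of members. IGHJ4 was used in 61.6% of these 564Igi cells, against 27.2% of members. Heavy CDR3s of at least 17 amino acids made up 51.04%, against 16.5% of members. The set is therefore unlike members in its heavy chains, and the cause was not tested. In WT cells with 2 light chains the median of the light chain with most UMIs was 22 in IGKV4 and 70.5 in IGKV17.

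**Figure D5:**
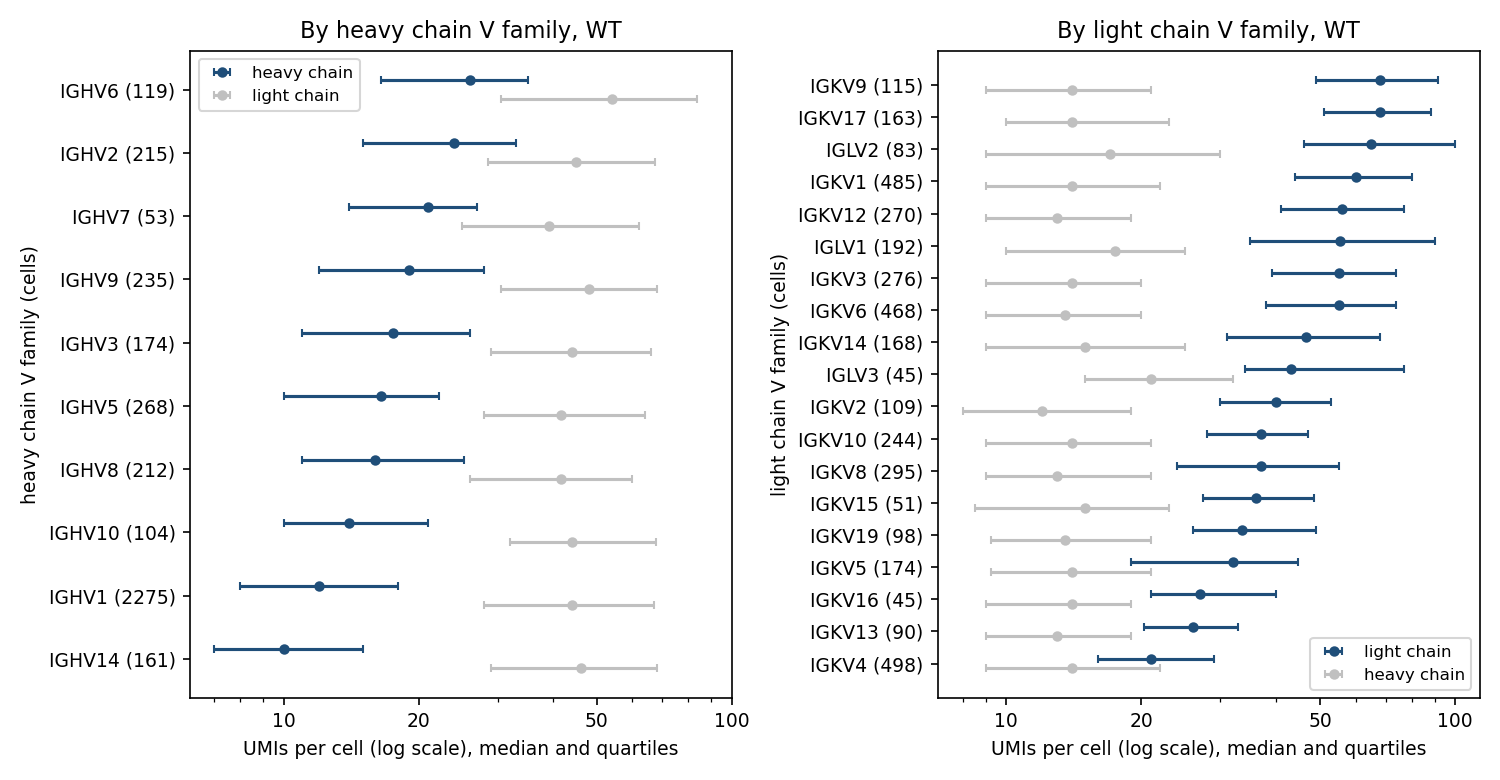
Median UMIs per cell with quartiles (x axis, log scale) of the heavy and light chain, by heavy V family (left) and light V family (right), for families with at least 40 members (cell numbers in brackets). Blue marks the chain that the family names and grey its partner; blue medians run from 10 to 26 on the left and 21 to 68 on the right, while grey medians stay between 39 and 54 and between 12 and 21.

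By the constant gene named, the ratio was 0.341 in IGHM cells, with medians of 16 heavy and 48 light UMIs, and 0.302 in IGHD cells, with 11 and 39. Cells with no constant gene named had 9 heavy UMIs and a ratio of 0.235. Lambda cells had a median of 18 heavy UMIs and 56.5 light UMIs, against 14 and 44 in kappa cells, with ratios of 0.327 and 0.326.

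The ratio differed between the mice. In 3051 564Igi cells with 1 heavy and 1 light chain it was 1 (0.950 to 1), with medians of 18 heavy and 18 light UMIs, against 0.326 in WT members, with 14 and 45. Of these 564Igi cells, 2898 carried the same, most frequent light CDR3 and 2944 an IGKV4 light chain, the family with the lowest light UMIs among WT members (21). In the 153 564Igi cells with any other light CDR3, the median light UMI count was 45, as in WT members, and the ratio 0.375 (0.333 to 0.421). WT members with an IGKV4 light chain had a ratio of 0.640. The cause of the difference between the mice was not tested, and genotype, mouse and library cannot be told apart. None of the 3874 members carried the most frequent heavy or light CDR3 of the 564Igi cells, and a count of 0 allows a share of up to 0.0774%, taken as 3 counts of the total. The B cell tables of both mice shared 38 cell barcodes, 23 of them members.

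Members were also set beside the 497 WT cells with 1 heavy and 2 light chains. The only heavy family whose difference had an interval that left out 0 was IGHV14, with 4.16% of members and 2.21% of cells with 2 light chains, a difference of 1.94 percentage points (0.126 to 3.24) among 15 families compared. IGHD was the constant gene in 20.3% of cells in both sets, heavy CDR3s of at least 17 amino acids made up 16.5% and 17.1%, and median heavy UMIs were 14 and 15. A positive heavy CDR3 was found in 24.0% of members and 25.8% of cells with 2 light chains, a difference of -1.72 points (-6.02 to 2.31).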

How the data were processed

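Single-cell V(D)J contig tables for B cell and for T cell receptors from 1 564Igi and 1 WT mouse were used, 4 of the 6 libraries of the series. Cell Ranger 3.0.2 and mm10 are named, per the submitters' processing notes, with no role given. Each contig row carries read and UMI counts as deposited, raw and not normalized per the file headers, with V, D, J and constant gene names, CDR3 and a cell call, and contig lengths as other deposited values. Barcodes called in both tables of a mouse (345 in WT) were left out as possible doublets. No doublet caller was run, so doublets of B cells remain. Where a chain had several contigs, the one with most UMIs was used. A positive CDR3 had a net charge of at least 1. Expected pairs are row total times column total over all cells, with exact Poisson intervals; shares carry exact Clopper-Pearson intervals, differences Newcombe intervals and medians order-statistic intervals. No p-value was computed. The functions were tested on simulated tables with known pairings.

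Members, lists and comparisons were chosen with earlier results of these data known. Named were family pairs with at least 10 expected cells past 1.5-fold whose interval left out 1, gene pairs with at least 10 cells and 2-fold, 2 B-1 type pairs, the 5 most used V genes per chain, all J and constant genes, the 5 most shared light CDR3s and the heavy length extremes. Coordinates come from a RefSeq table of GRCm38.p6, and sequences from the deposited tables. Alternatives changed the UMI minimum (1 or 5), the doublet, confidence and CDR3 rules, the margins, and the cells counted. Tables were handled with pandas 2.3.3 and NumPy 2.4.6 in Python 3.11.15, intervals came from SciPy 1.17.1 and plots from matplotlib 3.10.9.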

Additional observations from a re-analysis of the deposited data

How the results depend on the processing

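Of 163 recomputed values, 157 stayed within the interval of the reported value or, for counts and the family association, within 1.5 times of it. Direction was checked for the named family pairs alone, and none of these reversed. Telling chains apart by CDR3 amino acids gave the same 3874 cells, so its unchanged values add no information. A minimum of 1 UMI (3893 cells) and each clonotype counted once (3847) changed few cells, so their values could move little. The chi-square per degree of freedom of heavy with light families was 1.71 without IGHV10 and IGHV11 cells and 2.84 with them. The number of family pairs past 1.5-fold was 36 where at least 5 cells were expected, against 16 at 10, since more pairs with few cells enter. The median heavy-to-light ratio of 0.326 was 0.337 at a minimum of 5 UMIs, 0.385 in cells with at least 10 heavy UMIs, 0.400 without IGHV1 cells and 0.215 from read counts. The first 2 of these settings remove cells with few heavy UMIs by construction, and for the other 2 the cause was not tested. The settings without IGHV10 and IGHV11 or without IGHV1 for the ratio, kappa cells alone, and those for the lambda share by family, the charge and the IGKV1-135 share were chosen after seeing the data. No paired analysis was possible because each mouse has 1 library of a kind and the results come from no test. In 1457 WT B cells with 1 light chain no heavy chain was kept, and neither the part of depth in this nor its part in the family shares of members was tested.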

Other observations

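The IgD-annotated share of heavy chains differed with the receptor. IGHD was the constant gene in 14.4% (10.7 to 18.7) of 320 lambda cells, against 20.8% (19.5 to 22.2) of 3554 kappa cells, a difference of -6.45 percentage points (-10.4 to -1.92). In cells with at least 10 heavy UMIs the difference was -4.75 points, with an interval that included 0 (-8.86 to 0.182). Within lambda it was 7.03% (3.27 to 12.9) of 128 IGLV2 or IGLV3 cells, against 19.3% (13.9 to 25.6) of 192 IGLV1 cells. By heavy family, IGHV14 had 9.94% (5.79 to 15.6) of 161 cells, against 20.7% (19.4 to 22.1) of 3713 other cells. None of the 34 cells with IGHV11, IGHV12 or IGHV13 had IGHD, with an exact upper bound of 10.3%, against 20.5% of the other 3840 cells. These comparisons were chosen after the values were seen, and IGHD cells had fewer heavy UMIs (median 11) than IGHM cells (median 16), whose part in them was not tested.

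A small set of cells held most transcripts. The 30 members with at least 1000 UMIs carried 54.2% of all member UMIs, with medians of 2060.5 heavy and 5391.5 light UMIs. Their ratio, 0.342 (0.218 to 0.575), lay near the 0.326 of all members. IGHM was the constant gene in 23 of them and IGHD in none, and 4 had a lambda chain.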
